A study of Sus scrofa with 24 samples.

Results

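The cytochrome P450 (CYP) enzymes of pig liver were followed across 24 arrays, 1 per pig. The animals (Sus scrofa) weighed 115 kg and formed 3 groups of 8. Members were all non-control probes whose gene symbol starts with CYP and a digit, whether the symbol stood in the scanner output or was named by the probe's description. This gave 87 probes for 39 genes among 43603 probes. Of these, 72 probes for 34 genes passed a filter on dim signal, among 29665 probes that did. To pass, a probe had to be marked as well above background in 6 or more of the 8 pigs of any group.

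Residual feed intake (RFI) is the feed an animal eats beyond what its growth and maintenance predict. The low RFI group (RFIneg) came from a line selected for low RFI and ate ad libitum. The high RFI group (RFIpl) came from a line selected for high RFI and ate ad libitum, and the restricted group (RFIplR) consisted of high RFI pigs given only as much feed as low RFI pigs ate. High minus low RFI therefore compares lines at free intake, restricted minus high RFI compares feeding levels within a line, and restricted minus low RFI compares lines at 1 feeding level. The comparisons share arrays pairwise, so their values are given side by side and are not independent. The labels describe 8 pigs per condition and give neither sex nor litter.

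CYP enzymes are heme proteins that put an oxygen atom into their substrates. In hepatocytes, families CYP1 to CYP3 clear drugs, plant compounds and the boar taint compound skatole, CYP4 enzymes oxidise the end of fatty acid chains, CYP7, CYP8 and CYP27 enzymes turn cholesterol into bile acids, and CYP51 acts in cholesterol synthesis. The steroid hormone CYPs work mainly in adrenal and gonad, and other members activate or break down vitamins A and D. Many of the drug-handling genes answer to receptors for foreign compounds: CYP1A genes to the aryl hydrocarbon receptor AHR, CYP2B and CYP3A genes to the nuclear receptors CAR (NR1I3) and PXR (NR1I2).

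The array reads each transcript through probes of 60 bases, and the sequences below are those of the scanner output. Of several CYP2C33 probes, those shown are the single CYP probe past the test threshold and a probe that overlaps it. They cover bases 327 to 386 and 368 to 427 of the same target transcript, and capitals mark the bases at which they differ within the 19 bases that overlap (C49G and G56A, counted from the 5′ end of the first probe, whose base is given first).
CYP2C33, A_72_P542129: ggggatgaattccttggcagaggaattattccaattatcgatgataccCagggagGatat
CYP2C33, A_72_P252252: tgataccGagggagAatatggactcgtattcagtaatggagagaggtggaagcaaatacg
The next 4 probes, with no base singled out, are shown because their signals peaked together from pig to pig.
CYP2C49, A_72_P146661: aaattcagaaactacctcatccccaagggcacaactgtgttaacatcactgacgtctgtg
CYP2C49, A_72_P496311: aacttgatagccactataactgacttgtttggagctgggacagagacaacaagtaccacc
CYP2C49, A_72_P523435: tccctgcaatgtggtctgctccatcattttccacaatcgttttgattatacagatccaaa
CYP2C32, A_72_P445013: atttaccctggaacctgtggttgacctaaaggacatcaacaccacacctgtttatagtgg
The last 4 read genes of different roles that stood among the larger differences, namely CYP1A1, CYP2D25, CYP51 and CYP7A1.
CYP1A1, A_72_P443804: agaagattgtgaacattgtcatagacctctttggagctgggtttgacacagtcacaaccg
CYP2D25, A_72_P528160: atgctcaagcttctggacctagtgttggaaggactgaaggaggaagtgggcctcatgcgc
CYP51, A_72_P155691: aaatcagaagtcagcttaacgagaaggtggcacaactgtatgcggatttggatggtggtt
CYP7A1, A_72_P078461: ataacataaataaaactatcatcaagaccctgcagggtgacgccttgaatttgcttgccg

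Between 63.2% and 72.7% of the spots of an array were well above background, and no CYP spot was saturated or marked as an outlier. Levels below are log2 signals on a scale whose 0 is the 75th percentile of each array, and differences are between group means of these levels, with their standard error (SE). A probe's level depends on its sequence, so levels of different probes are not ranked. Each gene is given by its brightest kept probe unless another is named. The test was limma's moderated test with Benjamini-Hochberg adjustment over all 29665 probes, and an adjusted p below 0.05 was the threshold.

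No CYP gene passed that threshold, and 1 CYP probe did. Among the 34 genes the count was 0 in high minus low RFI, 0 in restricted minus high RFI, 0 in restricted minus low RFI and 0 in the F test over the 3 groups. Over all probes 0.162%, 0%, 0.229% and 0.212% passed. The CYP probe past the threshold was higher in restricted minus low RFI, as were 0.125% of all probes. At an unadjusted p under 0.05 limma counted 6 CYP genes (3 higher, 3 lower) in high minus low RFI, against 9.64% of all probes (5.17% higher, 4.47% lower). It counted 8 (4 higher, 4 lower) in restricted minus high RFI, against 5.37% (2.54% higher, 2.83% lower). It counted 7 (3 higher, 4 lower) in restricted minus low RFI, against 12.8% (6.2% higher, 6.59% lower). The F test counted 8, against 10.9% of all probes. These unadjusted counts are 17.6%, 23.5%, 20.6% and 23.5% of the 34 genes. The 8 in restricted minus high RFI include CYP2C49, CYP2C32 and CYP2C19-like. Signals of these peaked in the same 7 pigs, so they may not be separate readings. Leaving out 1 pig gave 3 to 8, 4 to 9 and 5 to 7 genes in the 3 comparisons, with 3 in high minus low RFI without low RFI pig 3, and in restricted minus high RFI 4 without restricted pig 2 and 5 without restricted pig 7 or high RFI pig 4. The counts describe the family and call no gene.

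The family as a whole lay near 0, while its members scattered more than the array at large. The median CYP difference was 0.042 in high minus low RFI, -0.033 in restricted minus high RFI and 0.019 in restricted minus low RFI. The medians over all probes were 0.0036, -0.011 and -0.0053. The median size of a CYP difference, whatever its sign, was 0.167, 0.143 and 0.188, against 0.109, 0.094 and 0.120 over all probes. Pigs of 1 group also differed more for CYP genes. The residual SD, given throughout as limma's moderated value, had a median of 0.371 for the CYP genes and 0.266 for all probes. It was above 0.5 for 10 of 34 CYP genes (29.4%) against 11.6% of all probes. Each CYP gene counted by its brightest kept probe, whereas the other side held every kept probe.

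**Figure D1:**
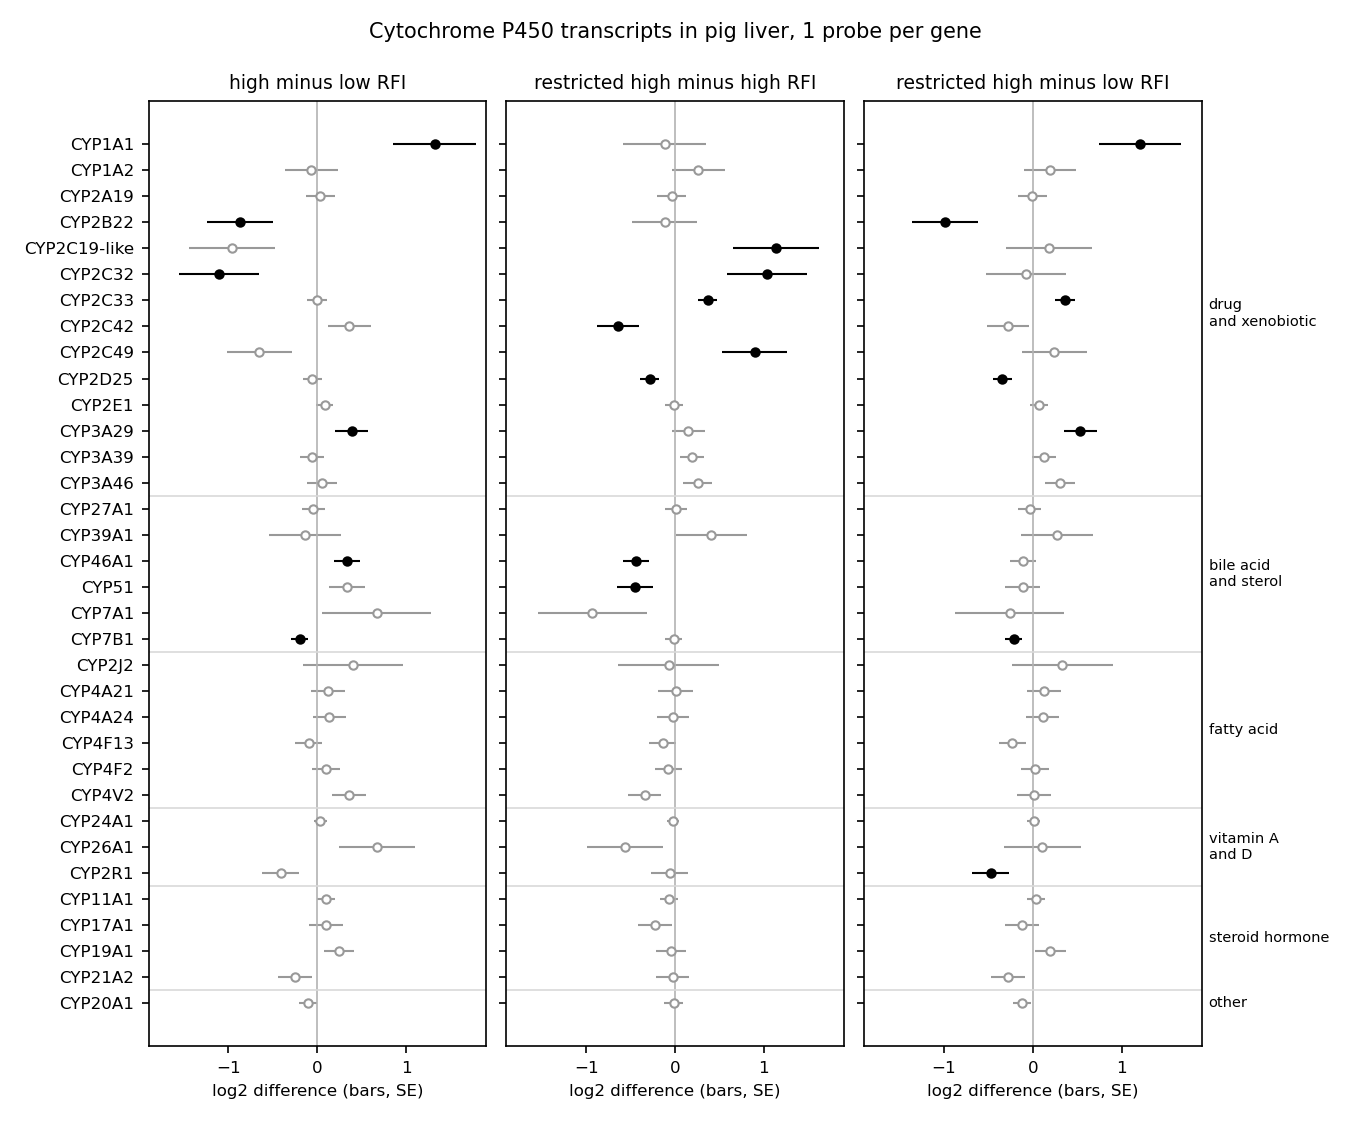
Log2 differences between group means (points) with SE (bars) for the 34 measured CYP genes, 1 probe per gene, in the 3 comparisons, grouped by role. Filled points had an unadjusted p under 0.05 by limma (6, 8 and 7 genes) and none passed the adjusted threshold. The longest excursions in the left panel are CYP1A1 at 1.32 and CYP2C32 at -1.11.

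The drug-handling CYPs held most of the CYP genes at an unadjusted p under 0.05. Of their 14 genes, 4, 6 and 5 had one in high minus low, restricted minus high and restricted minus low RFI. These are 28.6%, 42.9% and 35.7%, against 9.64%, 5.37% and 12.8% of all probes. The 6 include CYP2C49, CYP2C32 and CYP2C19-like, which may not be separate readings. None of the 14 passed after adjustment.

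CYP2C33, a pig member of the CYP2C drug-metabolising subfamily, was read by 6 probes, and 1 of them rose in restricted high RFI pigs against low RFI pigs. At A_72_P542129 the level was 3.33, 3.68 and 3.95 (lowest, median, highest) in low RFI pigs, 3.12, 3.89 and 4.54 in high RFI pigs and 3.99, 4.55 and 5.41 in restricted pigs. The lowest restricted pig thus stood just above the highest low RFI pig, while high RFI pigs overlapped both groups. The share of all probes at which these groups separate was not counted, so the separation carries no weight of its own. The difference from low RFI was 0.88 (SE 0.18), or 1.85-fold, with an adjusted p of 0.0356 by limma. Against high RFI it was 0.67 (adjusted p 0.715), and high minus low RFI was 0.21 (adjusted p 0.757). The direct test over the 3 groups gave an adjusted p of 0.0647.

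That call rested on small margins. Within scan day 1 the restricted minus low difference of this probe was 0.86 and within scan day 2 it was 0.98, with adjusted p-values of 0.172 and 0.354. Over 39 alternative settings the difference ranged from 0.76 to 0.98 and the adjusted p from 0.0206 to 0.354, and it missed the threshold in 17 of them. Leaving out a single pig ended the call for low RFI pigs 1, 2, 4, 5, 7 and 8 (adjusted p 0.0563, 0.0643, 0.0510, 0.0558, 0.0568 and 0.0635) and for restricted pigs 2, 6, 7 and 8 (0.0744, 0.0520, 0.0611 and 0.0817).

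The other 5 CYP2C33 probes gave smaller differences of the same sign, none past the threshold. Restricted minus low RFI was 0.60 at A_72_P526917 (adjusted p 0.112), 0.52 at A_72_P185221 (0.175), 0.48 at A_72_P252252 (0.240), 0.46 at A_72_P490065 (0.218) and 0.36 at A_72_P632981 (0.149). Restricted minus high RFI lay between 0.37 and 0.58 at these probes, and high minus low RFI between -0.08 and 0.11. At A_72_P252252, which shares 17 of 19 overlapping bases with the called probe, levels were 2.95, 3.14 and 3.70 in low RFI and 3.21, 3.62 and 4.36 in restricted pigs, and these groups overlapped. The brightest probe, A_72_P632981, ran from 7.24 to 7.73 in low RFI, from 7.10 to 7.71 in high RFI and from 7.41 to 8.16 in restricted pigs. Its restricted minus low difference was 0.54 within scan day 1 and 0.19 within scan day 2. The RefSeq table lists 2 loci under the name CYP2C33, so the probes may not all read 1 gene.

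**Figure D2:**
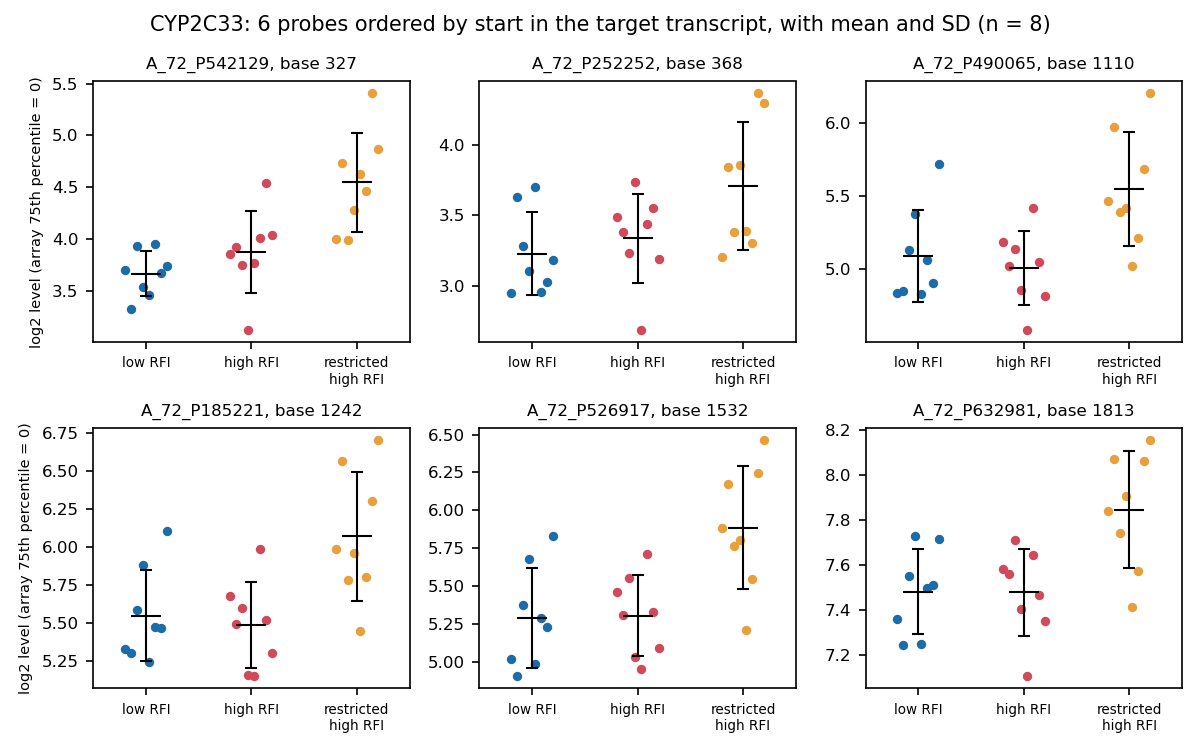
Log2 level of each pig (points) at the 6 CYP2C33 probes, ordered by their start in the target transcript, with group mean and SD (n = 8), and with 0 at the array's 75th percentile. Restricted pigs have the highest mean at every probe. At A_72_P542129 their lowest value (3.99) lies just above the highest low RFI value (3.95), and at the other probes these groups overlap.

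CYP2C49, CYP2C32 and a transcript named only as CYP2C19-like varied more from pig to pig than between groups. CYP2C49 was at 4.30, 4.89 and 6.29 in low RFI pigs, 4.0, 4.19 and 6.06 in high RFI pigs and 4.10, 5.27 and 6.38 in restricted pigs. The ranges of all 3 groups overlapped, but high RFI pigs other than pig 7 ran only from 4.0 to 4.36. Restricted minus high RFI was 0.90 (SE 0.37, adjusted p 0.883) and high minus low RFI was -0.65 (adjusted p 0.597). Its other probes gave 1.09 and 1.20 in the former and -1.17 and -1.18 in the latter.

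CYP2C32 was at 5.0, 5.91 and 6.91 in low RFI pigs, 3.99, 4.47 and 6.87 in high RFI pigs and 4.43, 5.75 and 7.26 in restricted pigs. High minus low RFI was -1.11 (SE 0.45, adjusted p 0.428) and restricted minus high RFI was 1.03 (adjusted p 0.917). The CYP2C19-like transcript differed by -0.96 (adjusted p 0.549) and 1.14 (adjusted p 0.913) in these comparisons. By scan day, restricted minus high RFI was 1.36 and 0.30 for CYP2C49, 1.64 and 0.29 for CYP2C32 and 1.80 and 0.32 for CYP2C19-like. The difference was thus larger within the first day. High RFI pig 7, far above the rest of its group for these 3 transcripts, was scanned on the second day. Over both days and without this pig, restricted minus high RFI was 1.13, 1.33 and 1.44 for them. High minus low RFI was then -0.89, -1.41 and -1.26.

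The same 7 pigs held the 7 highest values at all 5 probes of these genes. They were low RFI pigs 1 and 6, high RFI pig 7 and restricted pigs 1, 2, 4 and 7, and they sat on 6 different slides and both scan days. From the lowest to the highest pig the signal ranged 5.21-fold at CYP2C49 probe A_72_P523435, 11.4-fold at A_72_P146661, 14.3-fold at A_72_P496311, 9.61-fold for CYP2C32 and 11.6-fold for CYP2C19-like. At A_72_P496311 the seventh pig stood at 4.45 and the eighth at 3.80. The 5 probes matched at no more than 22 bases in the ungapped alignments tried, all on the same strand. The CYP2C49 probes start at bases 636, 973 and 1240 of the same target. A low match between probes therefore cannot tell whether they read 1 target. The array design lists a common transcript for CYP2C32 and the CYP2C49 probes, so they may share a target.

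**Figure D3:**
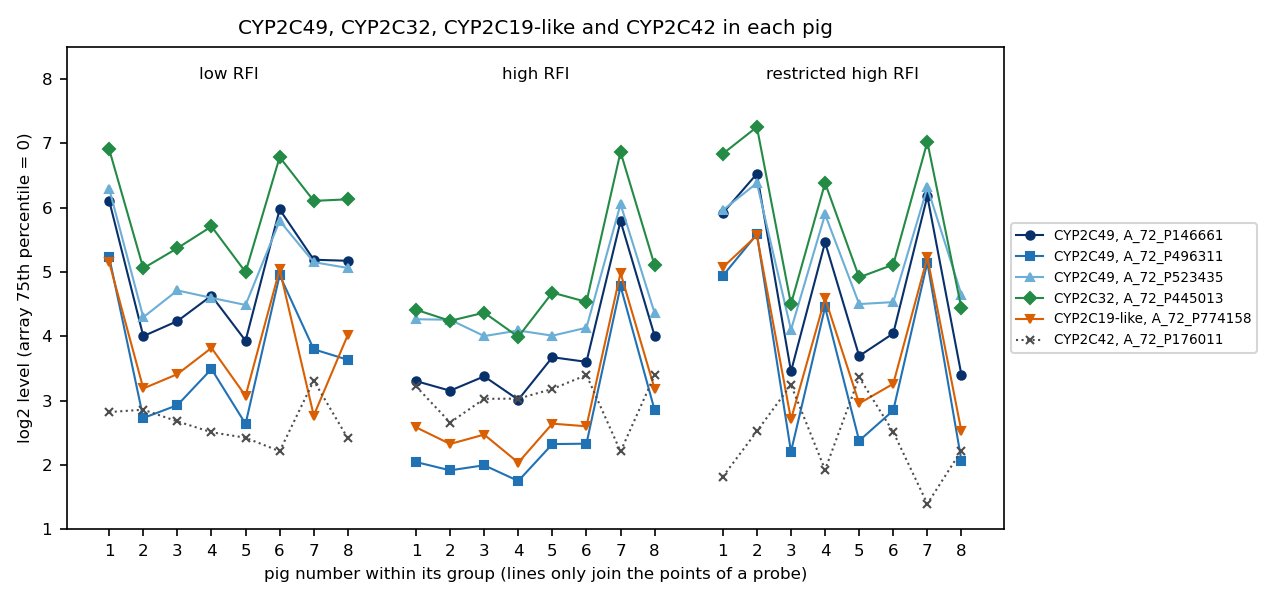
Log2 level in each of the 24 pigs (0 is the array's 75th percentile) at 3 CYP2C49 probes and 1 probe each for CYP2C32, CYP2C19-like and CYP2C42, with lines joining the points of a probe within a group. The first 5 probes peak in the same 7 pigs, 1 of them high RFI pig 7, while CYP2C42 does not follow them.

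CYP2C42, another pig CYP2C, was at 2.21, 2.59 and 3.31 in low RFI pigs, 2.21, 3.1 and 3.40 in high RFI pigs and 1.39, 2.37 and 3.36 in restricted pigs. The groups overlapped. Restricted minus high RFI was -0.64 (SE 0.24, adjusted p 0.858), and it was -0.87 within scan day 1 and -0.30 within scan day 2.

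CYP1A1, the inducible enzyme of the AHR response, had the largest difference of the family between the lines. Its level was -0.83, 1.35 and 2.29 in low RFI pigs, 1.46, 2.09 and 4.22 in high RFI pigs and 0.57, 2.27 and 3.48 in restricted pigs. The lowest high RFI pig stood above the low RFI median, and the groups overlapped. The lines differed at free intake by 1.32 (SE 0.47, adjusted p 0.329), or 2.5-fold, and restricted minus low RFI was 1.21 (adjusted p 0.262). The second probe, A_72_P443804, gave 1.35 (adjusted p 0.314) and 0.99 (adjusted p 0.366). High minus low RFI was 1.28 within scan day 1 and 1.26 within scan day 2.

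CYP1A2, the constitutive liver partner of CYP1A1, gave no such difference. Its brighter probe was at 2.74, 3.06 and 3.38 in low RFI pigs, 2.36, 2.93 and 3.87 in high RFI pigs and 1.86, 3.15 and 4.54 in restricted pigs, with overlapping groups and the widest range in restricted pigs. High minus low RFI was -0.07 and restricted minus low RFI 0.20 (adjusted p 0.969 and 0.828). The dimmer probe, A_72_P758583, went the other way with -0.70 in restricted minus low RFI (adjusted p 0.0895), so the 2 probes of CYP1A2 disagree.

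CYP2B22, the pig gene of the CAR-responsive CYP2B subfamily, was at -1.76, 0.33 and 1.64 in low RFI pigs, -1.75, -0.66 and 0.55 in high RFI pigs and -1.22, -0.75 and 0.17 in restricted pigs. The low RFI group spanned the range of both others. Between the lines at free intake the difference was -0.87 (SE 0.37, adjusted p 0.445) and restricted minus low RFI was -0.99 (adjusted p 0.247). The second probe, A_72_P458896, gave -0.43 (adjusted p 0.804) and -0.83 (adjusted p 0.444). At the brighter probe, high minus low RFI was -0.07 within scan day 1 and -1.52 within scan day 2, so it was near 0 within the first day. On that day the low RFI group held only pigs 1, 5 and 7.

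CYP3A29, the main pig counterpart of human CYP3A4, was at 5.02, 6.06 and 6.62 in low RFI pigs, 6.03, 6.46 and 6.73 in high RFI pigs and 6.06, 6.55 and 6.93 in restricted pigs. The lowest low RFI pig stood below every pig of the high line, and the upper ends overlapped. The high line exceeded the low line at free intake by 0.39 (SE 0.18, adjusted p 0.510) and restricted minus low RFI was 0.54 (adjusted p 0.216). Without low RFI pig 5 the first was 0.25, and the second was 0.73 and 0.33 within the scan days and 0.27 with slide 3 left out. Its other probes gave 0.63 and 0.51 in high minus low RFI and 0.70 (adjusted p 0.0729) and 0.60 (adjusted p 0.151) in restricted minus low RFI. Of these, A_72_P797432 and the brightest probe share 48 of 49 overlapping bases, so they are not independent readings.

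The other CYP3A names differed less. The RefSeq table gives CYP3A39 as a synonym of CYP3A46, so the symbols, counted here as 2 genes, may be 1. CYP3A39 differed by -0.06, 0.19 and 0.13 in high minus low, restricted minus high and restricted minus low RFI (adjusted p 0.928, 0.958 and 0.742). CYP3A46 differed by 0.05, 0.25 and 0.30 (adjusted p 0.957, 0.950 and 0.467). One of its 4 probes, A_72_P742947, gave 0.56 and 0.77 against low RFI (adjusted p 0.482 and 0.201), while A_72_P322704 gave -0.26 and 0.00.

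CYP2D25, a liver enzyme that handles drugs and also hydroxylates vitamin D, had its lowest values in restricted pigs. Its level was 7.91, 8.12 and 8.34 in low RFI pigs, 7.92, 8.06 and 8.31 in high RFI pigs and 7.42, 7.80 and 8.19 in restricted pigs. The groups fed ad libitum covered the same range, and restricted pigs reached below it. Restricted minus low RFI was -0.34 (SE 0.10, adjusted p 0.156) and restricted minus high RFI was -0.29 (adjusted p 0.855). The other probes gave -0.49 at A_72_P528160 (adjusted p 0.0643) and -0.44 at A_72_P165101 (adjusted p 0.0949) in restricted minus low RFI. All 3 probes thus had the same sign without passing the threshold.

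CYP2E1, which oxidises ethanol and other small molecules, and CYP2A19 are the enzymes known for skatole breakdown in pig liver. CYP2E1 was at 7.98, 8.57 and 8.79 in low RFI pigs, 8.37, 8.58 and 8.81 in high RFI pigs and 8.40, 8.53 and 8.80 in restricted pigs. The groups overlapped, and 2 low RFI pigs (7.98 and 8.29) lay below every other pig. Its differences were 0.08, -0.01 and 0.07 (SE 0.10 each, adjusted p 0.807 to 0.998), while its other probes gave -0.20 and -0.10 in restricted minus low RFI (adjusted p 0.591 and 0.736). CYP2A19 differed by 0.03, -0.04 and -0.00 at its brightest probe, and its 6 other probes gave -0.25 to -0.38 in restricted minus low RFI (adjusted p 0.513 to 0.720).

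**Figure D4:**
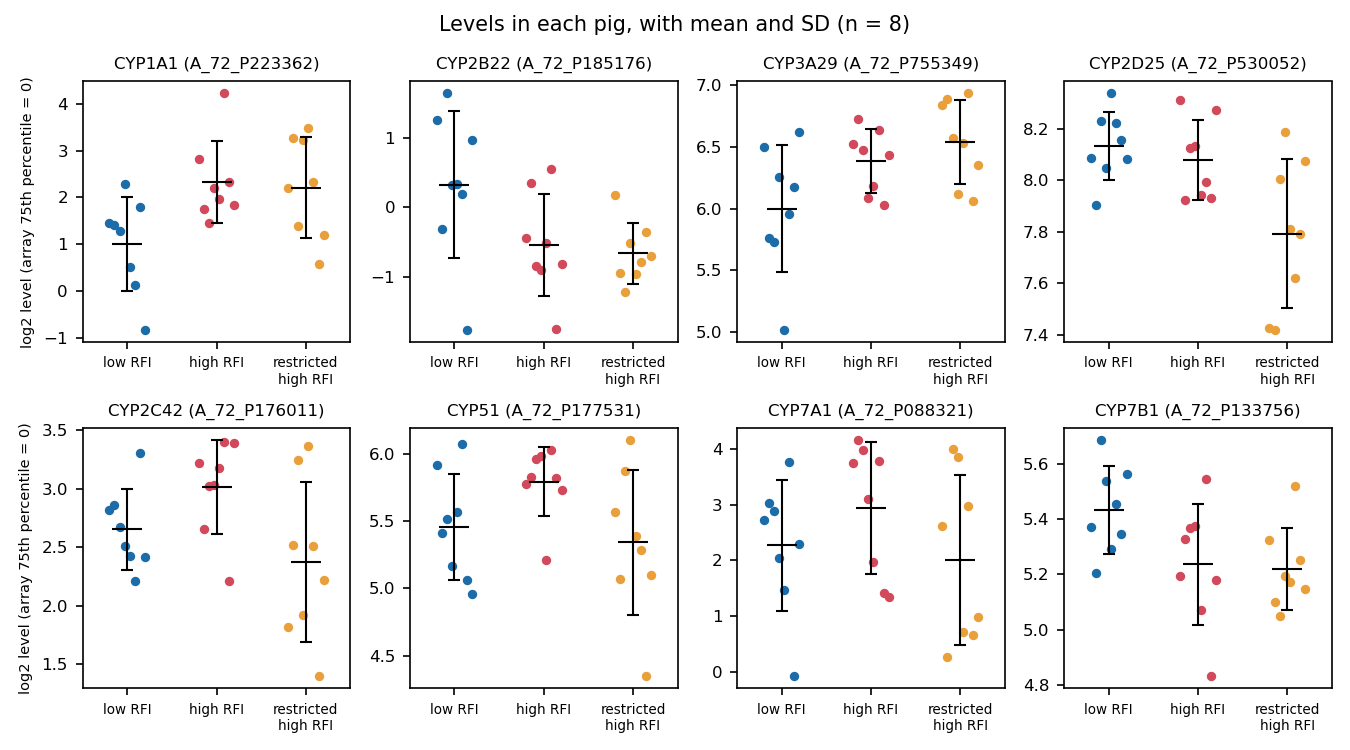
Log2 level of each pig (points) in the 3 groups for 8 CYP genes, with group mean and SD (n = 8) and with 0 at the array's 75th percentile. Panels have their own axis ranges. CYP7A1 spans several log2 units within each group, whereas CYP7B1 stays between 4.83 and 5.69.

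The bile acid and sterol CYPs comprised 6 measured genes, and none passed. Of these, 2, 2 and 1 had an unadjusted p under 0.05 in the 3 comparisons, against 9.64%, 5.37% and 12.8% of all probes. CYP46A1, whose probe carries another symbol in the scanner output, was 1 of the 2 in high minus low and in restricted minus high RFI. CYP8B1, the enzyme that sets the cholic acid share of bile acids, was well above background on 2, 5 and 2 of 8 arrays in low, high and restricted RFI pigs and failed the filter.

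CYP7A1, the rate-limiting enzyme of bile acid synthesis, was the most variable gene of the family. Its level was -0.09, 2.52 and 3.77 in low RFI pigs, 1.34, 3.43 and 4.17 in high RFI pigs and 0.27, 1.80 and 4.02 in restricted pigs. Low RFI and restricted pigs spread over nearly the whole range, while no high RFI pig lay below 1.34 at this probe. Its residual SD was 1.23, the largest of the 34 genes. Restricted minus high RFI was -0.93 (SE 0.61, adjusted p 0.950), and the second probe, A_72_P078461, gave -1.42 (adjusted p 0.883), a 2.67-fold lower mean. At that second probe the lowest high RFI pig stood at -0.26. Neither probe passed the threshold.

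CYP51 (CYP51A1), lanosterol demethylase of cholesterol synthesis, was read by 4 probes, all of them above 0 in high minus low RFI and below 0 in restricted minus high RFI. At its brightest probe the level was 4.96, 5.46 and 6.07 in low RFI pigs, 5.21, 5.82 and 6.03 in high RFI pigs and 4.34, 5.34 and 6.10 in restricted pigs. High RFI pigs, 1 excepted, sat in the upper part of the range of the other groups. The difference was 0.34 in high minus low RFI (SE 0.2, adjusted p 0.621) and -0.45 in restricted minus high RFI (adjusted p 0.917). The largest values came from A_72_P155691, with 0.73 (adjusted p 0.234) and -0.66 (adjusted p 0.737). Restricted minus low RFI lay between -0.13 and 0.06 over the 4 probes.

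CYP51 followed SQLE, the squalene epoxidase just upstream of lanosterol, from pig to pig. With group means removed, their levels correlated at Pearson r = 0.80 over 24 pigs, with a permutation p of 2e-05 from 100000 permutations and 9e-05 after Benjamini-Hochberg adjustment over the 9 pairs computed. Spearman rho was 0.77 (adjusted permutation p 0.00054). Leaving out the 2 pigs farthest from the median of CYP51 left r at 0.78, and r was 0.80 within scan day 1 and 0.87 within scan day 2. By group, r was 0.93 in low RFI pigs, 0.20 in high RFI pigs and 0.87 in restricted pigs, and whether these differ was not tested.

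**Figure D5:**
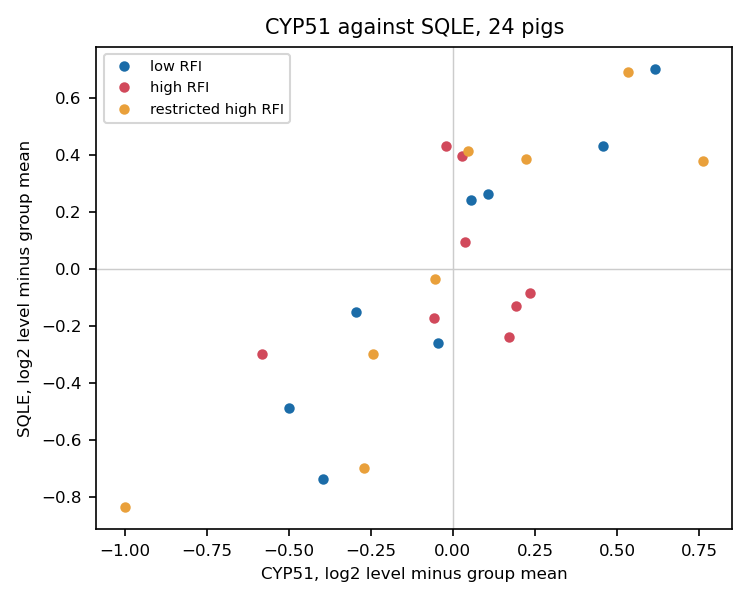
Log2 level of SQLE against that of CYP51 in 24 pigs, each minus its group mean, coloured by group. Points rise from lower left to upper right (r = 0.80).

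A further 7 pairs did not pass, with r from -0.21 to 0.36 and adjusted permutation p from 0.301 to 0.920. They were CYP1A1 with CYP1A2, CYP3A29 with CYP2B22, CYP2E1 with CYP2A19, CYP2E1 with CYP1A2, CYP2C33 with CYP2C49, CYP4A24 with PPARA and CYP3A29 with NR1I2. The last was taken over 23 pigs, since an outlier spot removed 1. Of 11 pairs listed, those of CYP7A1 with CYP8B1 and NR0B2 could not be computed because the partner had no kept probe.

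The remaining sterol genes differed little. CYP7B1, the oxysterol hydroxylase of the acidic bile acid pathway, was at 5.20, 5.41 and 5.69 in low RFI pigs, 4.83, 5.26 and 5.55 in high RFI pigs and 5.05, 5.18 and 5.52 in restricted pigs. The high-line groups had slightly lower medians with wide overlap. The lines at free intake differed by -0.20 (SE 0.094, adjusted p 0.508) and restricted minus low RFI was -0.21 (adjusted p 0.333), and the former was -0.01 within scan day 1 and -0.35 within scan day 2. CYP27A1, the mitochondrial sterol 27-hydroxylase, differed by -0.04, 0.01 and -0.04, and CYP39A1, an oxysterol hydroxylase, by -0.14, 0.41 and 0.27 (adjusted p 0.824 to 0.967).

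CYP46A1, known as the cholesterol hydroxylase of brain, was well above background on all 24 arrays, at -3.79, -3.32 and -2.98 in low RFI pigs, -3.41, -3.02 and -2.58 in high RFI pigs and -3.74, -3.61 and -2.92 in restricted pigs. The groups overlapped, with differences of 0.33 in high minus low RFI (adjusted p 0.455) and -0.44 in restricted minus high RFI (adjusted p 0.737). The scanner output gives another symbol (AK7) for this probe, and with a different background correction (normexp) the former was 0.001.

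Among the fatty acid CYPs, 0 of 6 genes passed by limma and 0 had an unadjusted p under 0.05 in any of the 3 comparisons. CYP4A21, classed here by symbol although the pig enzyme is known for making hyocholic acid, was at 6.22, 7.16 and 7.67 in low RFI pigs, 6.71, 7.33 and 7.64 in high RFI pigs and 6.85, 7.22 and 7.92 in restricted pigs. Its differences were 0.12, 0.01 and 0.13, and the groups coincided. CYP4A24, a fatty acid omega-hydroxylase, differed by 0.13, -0.02 and 0.11. The brightest probes of CYP4A21 and CYP4A24 share a run of at least 20 bases, so these genes may not be read separately.

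CYP4V2, a fatty acid hydroxylase linked to a retinal dystrophy, had the smallest p of this class, with 0.36 in high minus low RFI and -0.34 in restricted minus high RFI (adjusted p 0.567 and 0.926). Its level was -0.22, 0.85 and 1.03 in low RFI pigs, 0.50, 1.04 and 1.36 in high RFI pigs and 0.04, 0.68 and 1.16 in restricted pigs. CYP4F2 differed by 0.10, -0.07 and 0.02, and CYP4F13, named through a mouse transcript, by -0.09, -0.14 and -0.23. CYP2J2, an arachidonic acid epoxygenase, differed by 0.40, -0.07 and 0.33 with a residual SD of 1.13 (adjusted p 0.848 to 0.998).

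The vitamin CYPs held 3 measured genes. CYP26A1, which breaks down retinoic acid, was at -2.64, -1.52 and -0.23 in low RFI pigs, -2.63, -0.47 and 0.37 in high RFI pigs and -2.72, -1.21 and -0.44 in restricted pigs. The groups shared their lower end, and high minus low RFI was 0.67 (SE 0.43, adjusted p 0.656). CYP2R1, a vitamin D 25-hydroxylase, was at -3.25, -2.96 and -2.57 in low RFI pigs. It was at -4.04, -3.16 and -2.83 in high RFI pigs and -4.53, -3.31 and -2.70 in restricted pigs. High minus low RFI was -0.41 (adjusted p 0.545) and restricted minus high RFI was -0.06 (adjusted p 0.995). Restricted minus low RFI was -0.47 (adjusted p 0.333), with -0.22 and -0.86 within the scan days and -0.31 without restricted pig 7. CYP24A1, the vitamin D 24-hydroxylase known mainly from kidney, differed by 0.03, -0.02 and 0.01 and had the smallest residual SD of the family, 0.145. Its brightest probe shares a run of 20 bases with 2 probes that carry no CYP name, so its signal may not be that of CYP24A1 alone. CYP27B1 and CYP26C1 were not well above background on any array.

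Of the steroid hormone CYPs, by limma 0 of 4 measured genes passed and 0 had an unadjusted p under 0.05. CYP19A1, aromatase, was at 1.34, 2.78 and 3.02 in low RFI pigs, 2.29, 2.90 and 3.07 in high RFI pigs and 2.55, 2.74 and 3.08 in restricted pigs, with differences of 0.24, -0.05 and 0.20. Low RFI pig 8 was the low value, and without it high minus low RFI was 0.07 and restricted minus low RFI 0.02. A second CYP19A1 probe was well above background on 3, 4 and 2 of 8 arrays, and the probes of the paralogs CYP19A2 and CYP19A3 on none. CYP21A2, the adrenal 21-hydroxylase, was at -3.59, -3.37 and -1.66 in low RFI pigs, -3.70, -3.37 and -3.13 in high RFI pigs and -3.71, -3.39 and -3.16 in restricted pigs, with differences of -0.25, -0.03 and -0.28. Low RFI pig 2 was the high value, and without it high minus low RFI was -0.04 and restricted minus low RFI -0.07. CYP11A1, which starts steroid synthesis from cholesterol, differed by 0.10, -0.07 and 0.04, and CYP17A1, the 17-hydroxylase, by 0.10, -0.23 and -0.12. CYP20A1, whose substrate is not settled, differed by -0.10, -0.02 and -0.12.

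Genes that work with the CYPs also gave no call. Of 7 measured electron-transfer and hydrolase partners, 0 passed by limma and 0 had an unadjusted p under 0.05 in any comparison, and POR, the reductase that feeds electrons to microsomal CYPs, differed by 0.13, 0.07 and 0.20 (adjusted p 0.583 to 0.988). By limma 0 of 12 measured regulators passed. In each comparison with low RFI 1 had an unadjusted p under 0.05, against 9.64% and 12.8% of all probes. These were AHR, with 0.53 in high minus low RFI (adjusted p 0.310), and CEBPA, a hepatocyte transcription factor, with -0.79 in restricted minus low RFI (adjusted p 0.259). NR1I2 differed by -0.05, 0.06 and 0.01 and NR1I3 by 0.02, -0.19 and -0.17.

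Downstream and neighbouring pathways were similar. By limma 0 of 13 measured genes of drug conjugation and transport passed. In each comparison 2 had an unadjusted p under 0.05, against 9.64%, 5.37% and 12.8% of all probes. These were lower in the comparisons with low RFI and higher in restricted minus high RFI. The conjugate export pump ABCC2 had -0.56 and -0.51 in the comparisons with low RFI (adjusted p 0.233 and 0.195). By limma 0 of 5 measured bile acid genes outside the family passed and 0 had an unadjusted p under 0.05. Of 11 measured PPARA targets, which include fatty acid oxidation genes, 0 passed. In the same order of comparisons 1, 1 and 2 had an unadjusted p under 0.05, against 9.64%, 5.37% and 12.8% of all probes. Among 10 measured cholesterol synthesis genes 0 passed and 0 had an unadjusted p under 0.05, with a median of 0.093 in high minus low RFI and -0.145 in restricted minus high RFI, where 9 of 10 lay below 0. CYP51 itself differed by 0.34 and -0.45 there.

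In whole liver, fewer cells of a type and less RNA per cell cannot be told apart. Of 8 hepatocyte markers 7 were measured, and 0 had an unadjusted p under 0.05, with a mean score between -0.103 and 0.235 over all pigs. Of 7 stellate and fibroblast markers 5 were measured, and their mean score ran from -0.077 to 0.577 in low RFI pigs, -0.447 to 0.264 in high RFI pigs and -0.624 to 0.073 in restricted pigs. In restricted minus low RFI 3 of these 5 had a lower level at an unadjusted p under 0.05, against 6.59% of all probes. Their part in the CYP2C33 value was not tested. Of 15 measured interferon response genes all lay above 0 in high minus low RFI, 7 of them at an unadjusted p under 0.05. Of all probes, 5.17% were higher at that level. The mean score of these genes ran from -0.659 to 0.610 in low RFI pigs and from -0.684 to 2.28 in high RFI pigs. In restricted pigs it ran from -0.459 to 0.503. High RFI pig 7 had the highest score, and the part of these genes in the CYP values was not tested. Markers of bile duct (3 measured), endothelium (4), macrophage (3) and T and NK cells (5) gave 0 calls by limma. So did acute phase genes (10) and pericentral genes (5). In this order, 0, 0, 1, 0, 4 and 2 genes had an unadjusted p under 0.05 in restricted minus low RFI. Over all probes 12.8% had one. Of 4 measured periportal genes 1, arginase ARG1, rose by 1.02 in restricted minus low RFI (adjusted p 0.0259). Of 4 adrenal markers 2 were measured with 0 calls by limma and 1 gene at an unadjusted p under 0.05 in restricted minus low RFI, and neither of the pancreatic acinar markers on the array was kept.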

How the data were processed

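Liver RNA of 24 pigs (8 per group) was measured on 1-colour Agilent arrays. Per the labels, 150 ng of total RNA per pig was labelled with Cy3. Per the file headers, the deposited intensity values were read by Agilent Feature Extraction 10.7.3.1, and the processed signal is background-subtracted and detrended. Mean signal and median background, also intensities, served the normexp alternative. The outlier, saturation and background columns used are flags of 0 or 1. A further table from the authors holds deposited log2 values of 27564 features, equal to log2 processed signal minus the array median (correlation 1), which served as an alternative. The submitters' processing notes name R 2.10.0, and further upstream steps are not given in the sources used here. Array number, 8 per group, limits the precision.

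Control spots were left out (43803 of 45220 spots remained), log2 processed signals were scaled to the array's 75th percentile, outlier spots were set missing, spots of a probe were averaged, and dim probes were filtered (29665 of 43603 probes kept). limma 3.58.1 (R 4.3.3, lmFit and eBayes) was fitted to all 24 arrays with group as the factor. Of the CYP probes, 76 were named by the symbol in the scanner output and 11 through the description, and names were checked against RefSeq's table for Sscrofa11.1, used for names only; no genome was used. Correlations used 100000 permutations of pigs within groups (Python 3.11.15). Of the 9 pairs computed, 1 is not reported here. The fits were tested on simulated data.

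Named genes are those with a probe past the threshold, the 10 smallest p-values per comparison and the 3 brightest of each class, with the remaining members named by their differences. Members and lists were chosen with earlier results of these data known. Alternatives changed background correction (normexp, offset 50), normalization, filter, values, blocks, weights, arrays in the fit and the probe standing for a gene. Scan day and slide come from the file headers. The groups were unevenly spread over the scan days. On the first were low RFI pigs 1, 5 and 7, high RFI pigs 2, 4, 5 and 6 and restricted pigs 1, 2, 4, 6 and 8. Values within a scan day thus rest on few pigs. Nothing says how same-numbered pigs relate. P-values measure the spread between these pigs.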

Additional observations from a re-analysis of the deposited data

Results flagged for a closer look

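In 87 checks, each of a named CYP gene in 1 group, a pig stood far from the other 7 of its group in 6, where chance would give about 5%. High RFI pig 7 was the highest of its group for 3 CYP2C transcripts. It stood at 4.98 for CYP2C19-like (A_72_P774158) against 2.03 to 3.18 in the other high RFI pigs, at 6.87 for CYP2C32 (A_72_P445013) against 3.99 to 5.10, and at 6.06 for CYP2C49 (A_72_P523435) against 4.0 to 4.36. The array design lists a common transcript for the CYP2C32 and CYP2C49 probes and none that they share with the CYP2C19-like probe, so these may not be 3 separate readings. High RFI pig 5 was the lowest of its group for CYP51 (A_72_P177531), at 5.21 against 5.73 to 6.03.

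Low RFI pig 8 was the lowest for CYP19A1 (A_72_P641224), at 1.34 against 2.39 to 3.02. Low RFI pig 2 was the highest for the adrenal enzyme CYP21A2 (A_72_P223372), at -1.66 against -3.59 to -3.06.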

How the results depend on the processing

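No CYP gene passed the threshold in any comparison under any alternative, and the CYP median differences stayed within the spread between pigs, from -0.013 to 0.076 in high minus low RFI, -0.120 to -0.004 in restricted minus high RFI and -0.072 to 0.053 in restricted minus low RFI. CYP genes at an unadjusted p under 0.05 (6, 8 and 7 as reported) numbered 2 to 8, 2 to 9 and 3 to 8 in settings other than leaving out 1 pig. CYP probes past the threshold in restricted minus low RFI (1 as reported, CYP2C33) numbered 2 with quantile normalization, array weights, the replicate number as a block or high RFI pigs 5 and 7 left out, and 0 with no filter, normexp, only the groups compared, scan day 1 alone, scan day 2 alone, slide 3 left out or slide as a block. In the F test (0 as reported) they numbered 3 with array weights, 2 without high RFI pigs 5 and 7, and 1 with quantile normalization, scan day as a block or the replicate number as a block. Without 1 pig they ranged from 0 to 3 in restricted minus low RFI and from 0 to 2 in the F test. The added probes were of CYP2D25, CYP3A29, CYP1A2 and CYP2C33, and the cause was not tested except that single scan days and left-out arrays hold fewer pigs.

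The replicate numbers were not taken as pairs, since not every same-numbered correlation was over 0.1 (1 of 8 between low and high RFI, 5 of 8 between high RFI and restricted, 2 of 8 between low RFI and restricted). A pig correlated best with its own number in 1, 4 and 0 of 8 cases, which is a hint from the data for the second of these and not part of the design. The replicate block raised all calls in restricted minus low RFI from 68 to 103. Over all probes, calls ranged from 5 to 87 in high minus low RFI (48 as reported), 0 to 2 in restricted minus high RFI (0), 10 to 145 in restricted minus low RFI (68) and 7 to 152 in the F test (63), with 24 higher and 24 lower as reported in high minus low RFI and 4 and 1 with normexp, and 37 and 31 against 10 and 3 in restricted minus low RFI. Normexp moved the median of all probes in the latter to -0.108. Dim signal left CYP8B1, CYP19A2, CYP19A3, CYP26C1 and CYP27B1 without a tested probe.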

Other observations

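CYP2C42 ran opposite to the CYP2C49 cluster in single pigs. In high RFI pig 7, restricted pig 7 and low RFI pig 6, which were among the 7 highest pigs for CYP2C49 and CYP2C32, CYP2C42 was the lowest of its group, at 2.21, 1.39 and 2.21. In restricted pigs 1 and 4, also among those 7, it stood at 1.81 and 1.92, and in restricted pig 2 and low RFI pig 1 at 2.52 and 2.82, near the middle of their groups. This was seen after the values were examined and was not tested.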
